A study of Mus musculus with 2 samples.

Results

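The transcripts described here are those of the mouse mitochondrial genome: every gene whose symbol in the GENCODE M21 annotation begins with mt-. These were 37 genes of the 55536 with Ensembl identifiers, namely 13 protein-coding messages, 2 ribosomal RNAs (rRNAs) and 22 transfer RNAs (tRNAs). All 37 were also found under the older GENCODE M4 annotation, which held 43346 such genes. Polyadenylated RNA was sequenced from the liver of healthy B6NCrl mouse embryos at 12.5 days of development, with no treatment and no genotype named in the labels. There was a single group of 2 libraries, labelled biological replicates, so the design holds no contrast between conditions. Replicate 1 came from a pool of 120 embryos and replicate 2 from a pool of 88, each of male and female embryos mixed. Both were made from 10 ng of RNA by oligo-dT priming, with ERCC spike-in RNAs added.

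Mitochondrial DNA is a small circle that is transcribed from both strands into long precursors. The tRNAs stand between most of the other genes and are cut out, which frees the messages and rRNAs, and most messages then receive a short poly(A) tail. The messages encode the membrane core of complexes I, III, IV and V of oxidative phosphorylation, and every other subunit of those complexes is encoded in the nucleus. Stretches of mitochondrial DNA have also been copied into nuclear chromosomes, where they lie as pseudogenes.

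The tissue was checked against marker genes. All 6 hepatoblast markers stood at 10 TPM or more by the mean of the libraries (a transcript level scaled by length and library size), with Afp highest at 5157 TPM, and so did all 6 red cell markers. The red cell markers together reached 105648 TPM in the first library and 108578 TPM in the second, against 9083 and 8822 TPM for the hepatoblast markers. Of the 4 macrophage markers 3 reached 10 TPM (sums 169 and 171 TPM) and of the 4 endothelial markers 2 did (59.5 and 54.7 TPM). Of the 4 cardiac markers 1 did, Actc1 at 12.4 TPM, and 2 reached 1 TPM (sums 10.1 and 20.7 TPM). None of the 4 mature hepatocyte markers reached 1 TPM, and none of the marker genes was at 0 in both libraries. A level in these libraries is therefore an average over several cell types, liver and blood cells among them. In such an average fewer cells of a type and less RNA per cell cannot be told apart. The depth was 37190042 counts over the Ensembl genes for replicate 1 and 34291772 for replicate 2. Spike-ins took 4.99% and 5.40% of all TPM.

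The values of 7 of the 13 messages have to be read beside a block of near-identical sequence on chromosome 1. Between bases 24611535 and 24616197 of the mm10 assembly, on the minus strand, GENCODE M21 annotates 7 unprocessed pseudogenes within 4663 bases. Each aligned to 1 mitochondrial message, and they stand in the order those messages have in mitochondrial DNA, from mt-Co1 to mt-Nd4. Of the 6 spacings between neighbouring copies, 5 equalled the spacing in the mitochondrial genome to the base. The exception was the gap between the copies of mt-Nd3 and mt-Nd4l, of 74 bases against 73. The sequences that follow were read from the GENCODE M21 transcripts, 5′ to 3′ on the strand of each gene. They are the last bases of 4 messages and of their copies, shown because they hold the only letters by which message and copy differ, and capitals mark the bases of the message that its annotated copy does not hold. The bases of chromosome 1 beyond the annotated copies were not used here.
mt-Co3: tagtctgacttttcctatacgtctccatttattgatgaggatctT
Gm28437: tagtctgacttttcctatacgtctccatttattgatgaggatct
mt-Atp6: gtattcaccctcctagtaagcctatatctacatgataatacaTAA
Gm10925: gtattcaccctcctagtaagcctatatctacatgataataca
mt-Co2: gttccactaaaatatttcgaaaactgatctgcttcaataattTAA
Gm28661: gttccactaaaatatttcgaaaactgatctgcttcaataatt
mt-Nd4l: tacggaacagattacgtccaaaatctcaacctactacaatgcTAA
Gm10222: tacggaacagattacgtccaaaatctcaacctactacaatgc

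In these 4 pairs the annotated copy is the message without its stop codon, or, for mt-Co3, without the single T that stands for one. Gm28437 matched 783 bases of mt-Co3 with no mismatch, Gm28661 matched 681 bases of mt-Co2, Gm10925 matched 678 bases of mt-Atp6 and Gm10222 matched 294 bases of mt-Nd4l. The fifth pair, mt-Nd3 with Gm28438, matched over 345 bases with 1 mismatch, T3C, counted from 1 at the first base of the message. The first bases of that pair show it, with the mismatched base in capitals.
mt-Nd3: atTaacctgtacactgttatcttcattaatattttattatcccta
Gm28438: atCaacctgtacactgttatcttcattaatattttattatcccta

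The remaining pairs cover a message in part. Gm29216 matched bases 1063 to 1545 of mt-Co1, its last 483 bases, with the single mismatch A1066T, and 9 bases of the copy lay outside the alignment. Gm28439 matched the first 876 of the 1378 bases of mt-Nd4 with no mismatch. The deposited effective lengths were 99 bases shorter than the length for each of the 32272 entries with a single transcript of over 100 bases, so sequence was compared in windows of 100 bases. All but 1 of the 685 windows of mt-Co3 were also in Gm28437, and all but 3 were shared for mt-Co2 (of 585), mt-Atp6 (of 582) and mt-Nd4l (of 198). For mt-Nd3, 243 of 249 windows were shared, for mt-Nd4 777 of 1279 and for mt-Co1 380 of 1446. The messages mt-Nd1, mt-Nd2, mt-Atp8, mt-Nd5, mt-Nd6 and mt-Cytb and both rRNAs shared no window with these 7 copies.

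The 37 mitochondrial genes held 1.20% of the counts in replicate 1 (exact Clopper-Pearson 95% binomial interval 1.201% to 1.208%) and 1.23% in replicate 2 (1.227% to 1.234%). These are expected counts, reads that the authors' quantification divided among the genes they fit. The intervals cover counting error only, with each count taken as independent, and leave out the uncertainty of that division. The labels name no molecular identifiers, so repeated reads of 1 molecule are not accounted for either. By TPM the share was 1.81% and 1.84%. The 7 copies on chromosome 1 held a further 0.366% and 0.362% of the counts, so that message and copy together came to 1.57% and 1.59%.

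None of the 22 tRNAs had a count in either library or under either annotation. They carry the amino acids used by mitochondrial ribosomes and ranged from 59 bases for mt-Ts2 to 75 bases for mt-Tl1. Their effective length was 0 in every deposited table, and each is shorter than the 100-base window, so these zeros are not a measurement of tRNA level. The 2 sequences are shown for their length and were chosen after the values were seen.
mt-Tl1: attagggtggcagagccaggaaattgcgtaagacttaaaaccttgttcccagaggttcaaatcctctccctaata
mt-Ts2: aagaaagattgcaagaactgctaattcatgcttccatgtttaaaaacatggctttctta

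The rRNAs belong to the 2 subunits of the mitochondrial ribosome and lie near the start of the heavy-strand precursor, with mt-Tv (chrM:1025-1093) between them. The large-subunit rRNA mt-Rnr2 (chrM:1094-2675) stood at 2037 TPM in the first library and 2180 TPM in the second. The small-subunit rRNA mt-Rnr1 (chrM:70-1024) stood at 652 and 626 TPM. The level of mt-Rnr2 was thus 3.12 and 3.48 times that of mt-Rnr1, in libraries primed from poly(A), and neither rRNA has a copy among the 7.

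Complex V, the ATP synthase, takes 2 subunits from mitochondrial DNA, and their messages had the highest deposited levels of all 13. The proton channel subunit mt-Atp6 (chrM:7927-8607) stood at 4379 TPM in replicate 1 and 4380 TPM in replicate 2, which placed it at rank 17 of 55536 genes by mean TPM. The small membrane subunit mt-Atp8 (chrM:7766-7969) stood at 3194 and 3373 TPM, rank 19. The 2 genes overlap by 43 bases and are known to be carried on 1 message. The overlap is shown with the start codon of mt-Atp6 and the stop codon of mt-Atp8 in capitals.
mt-Atp8 and mt-Atp6: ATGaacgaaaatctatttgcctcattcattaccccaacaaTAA

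By TPM mt-Atp6 was 1.37 and 1.30 times mt-Atp8. Per annotated base, mt-Atp8 had 53.7 and 52.5 counts and mt-Atp6 with its copy 122 and 113, a ratio of 2.28 and 2.16. The ratio therefore rested on the length used: mt-Atp8 is 204 bases long and its effective length was 105.

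Complex IV, cytochrome c oxidase, takes its 3 catalytic core subunits from mitochondrial DNA. The message of the haem and copper subunit mt-Co1 (chrM:5328-6872) stood at 1019 and 1074 TPM. That of mt-Co2 (chrM:7013-7696), which accepts electrons from cytochrome c, stood at 1285 and 1425 TPM. That of mt-Co3 (chrM:8607-9390) stood at 824 and 727 TPM, the lowest of the 3. The copy of mt-Co3, Gm28437, stood at 3647 and 3680 TPM, which put this pseudogene at rank 18 of all genes, between mt-Atp6 and mt-Atp8.

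Complex III takes a single subunit from mitochondrial DNA, cytochrome b. Its message mt-Cytb (chrM:14145-15288) stood at 1144 and 1191 TPM. It shared no window with the 7 copies. It is 1 of 3 messages, with mt-Co3 and mt-Nd4, that end in a single T where poly(A) is known to complete the stop codon, and its last bases are shown beside those of mt-Nd4, with that T in capitals.
mt-Cytb: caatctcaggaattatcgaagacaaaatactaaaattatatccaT
mt-Nd4: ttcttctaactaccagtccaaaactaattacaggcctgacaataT

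Complex I, NADH dehydrogenase, takes 7 membrane subunits from mitochondrial DNA, and their deposited levels spread most widely. The highest was mt-Nd1 (chrM:2751-3707), at 1725 TPM in replicate 1 and 1672 TPM in replicate 2. Then came mt-Nd4 (chrM:10167-11544) at 587 and 569 TPM and mt-Nd2 (chrM:3914-4951) at 462 and 433 TPM. These 3 encode proton-pumping parts or the joint to the arm where NADH is oxidised. Lower levels were deposited for mt-Nd6 (chrM:13552-14070), at 294 and 269 TPM, and for mt-Nd5 (chrM:11742-13565), at 245 and 237 TPM. The small subunit mt-Nd3 (chrM:9459-9806) stood at 216 and 172 TPM. The small subunit mt-Nd4l (chrM:9877-10173) was the lowest of all 13 messages, listed at 0 in replicate 1 and at 74.2 TPM in replicate 2.

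The only message on the light strand is mt-Nd6, which overlaps mt-Nd5 by 14 bases on the other strand. The level of mt-Nd5 was 0.834 and 0.880 times that of mt-Nd6, in libraries primed from poly(A). Equal capture of mt-Nd5 and mt-Nd6 by that priming was not tested, so the ratio describes the captured RNA only. Whether the counting used strand is not given in the sources used here, so reads of mt-Nd6 and antisense reads of the same bases cannot be told apart.

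In the deposited TPM the order of the messages, from the highest, was mt-Atp6, mt-Atp8, mt-Nd1, mt-Co2, mt-Cytb, mt-Co1, mt-Co3, mt-Nd4, mt-Nd2, mt-Nd6, mt-Nd5, mt-Nd3 and mt-Nd4l. The ranges of the 2 libraries overlapped for no neighbours in that order, with only 2 libraries to set the spread. These ranges leave out the uncertainty in how reads were divided between message and copy, described below. By the authors' posterior mean TPM, mt-Co3 stood at rank 3 of the messages, at 1818 and 1798 TPM. On that scale the ranges of mt-Atp6 (3294 and 3484) and mt-Atp8 (3128 and 3298) overlapped. The median over the 13 messages was 775 ± 68.4 TPM (SD, n = 2), the level of mt-Co3, against medians of 1.84 and 1.86 TPM over 21951 protein-coding genes and of 14.6 and 14.5 TPM over the 11785 of them at 1 TPM or more in both libraries.

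**Figure D1:**
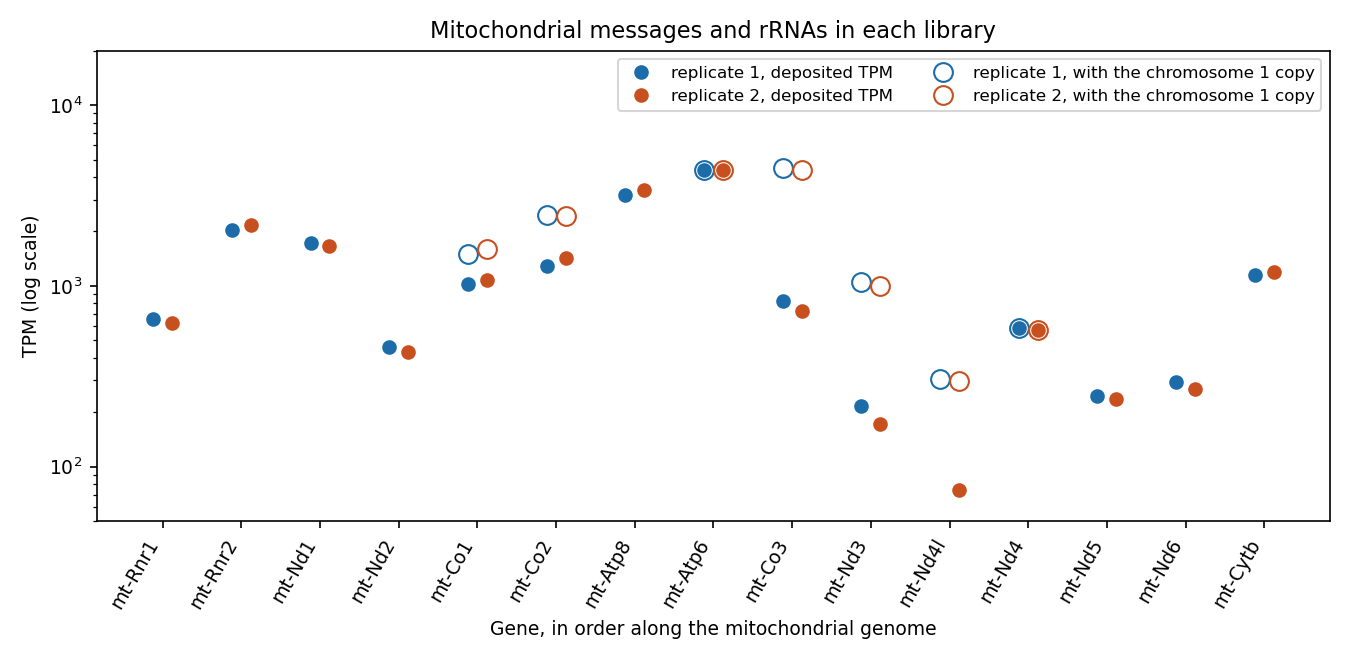
TPM of the 13 messages and 2 rRNAs (log scale) in genome order, with filled points for the deposited value in each library and open circles for message and chromosome 1 copy summed. The open circles stand well above the filled points for mt-Co2, mt-Co3, mt-Nd3 and mt-Nd4l and on them for mt-Atp6 and mt-Nd4. The deposited value of mt-Nd4l in replicate 1 is 0 and has no filled point.

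The counts of each pair were divided very differently from one pair to the next, although the sequences of most are almost the same. For mt-Co3 the message was given 18432 counts in replicate 1 and 15061 in replicate 2, and Gm28437 was given 81477 and 76121. The message thus held 18.4% and 16.5% of the pair. For mt-Atp6 the message was given 83243 and 77100 counts and Gm10925 4.37 and 0.99, so that the message held 99.99% or more of the pair in both libraries. These pairs lie side by side in both genomes, and each has at most 3 windows that its copy lacks.

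The pair of mt-Co2 was divided nearly evenly. The message was given 24560 counts in replicate 1 and 25213 in replicate 2, and Gm28661 22735 and 17903, so that the message held 51.9% and 58.5%. For mt-Nd3 the message was given 1755 and 1297 counts and Gm28438 6757 and 6203, a message share of 20.6% and 17.3%. For mt-Nd4l the message was given 0 and 444 counts and Gm10222 1982 and 1329, a message share of 0% and 25.1%. Counting error alone would allow up to 3 counts for the 0 in replicate 1, but that 0 rests on how shared reads were divided. The posterior mean count of mt-Nd4l in that library was 162 (posterior SD 113).

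The partial copies also differed from each other. For mt-Nd4 the message was given 24527 and 22019 counts and Gm28439 0 in both libraries, although 60.8% of the message's windows are also in the copy. For mt-Co1 the message was given 48146 and 46986 counts and Gm29216 22995 and 22584, so that the message held 67.7% and 67.5%. Gm29216 stood at 1791 and 1900 TPM, 1.76 and 1.77 times mt-Co1 itself. Its 58.5 and 57.5 counts per window compare with 33.3 and 32.5 for mt-Co1. Over the 7 pairs together the messages held 59.6% and 60.2% of the counts, and the copies the rest. Whether any of these reads came from RNA made on chromosome 1 was not tested, and for windows that are identical the sources of a read cannot be told apart by sequence.

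**Figure D2:**
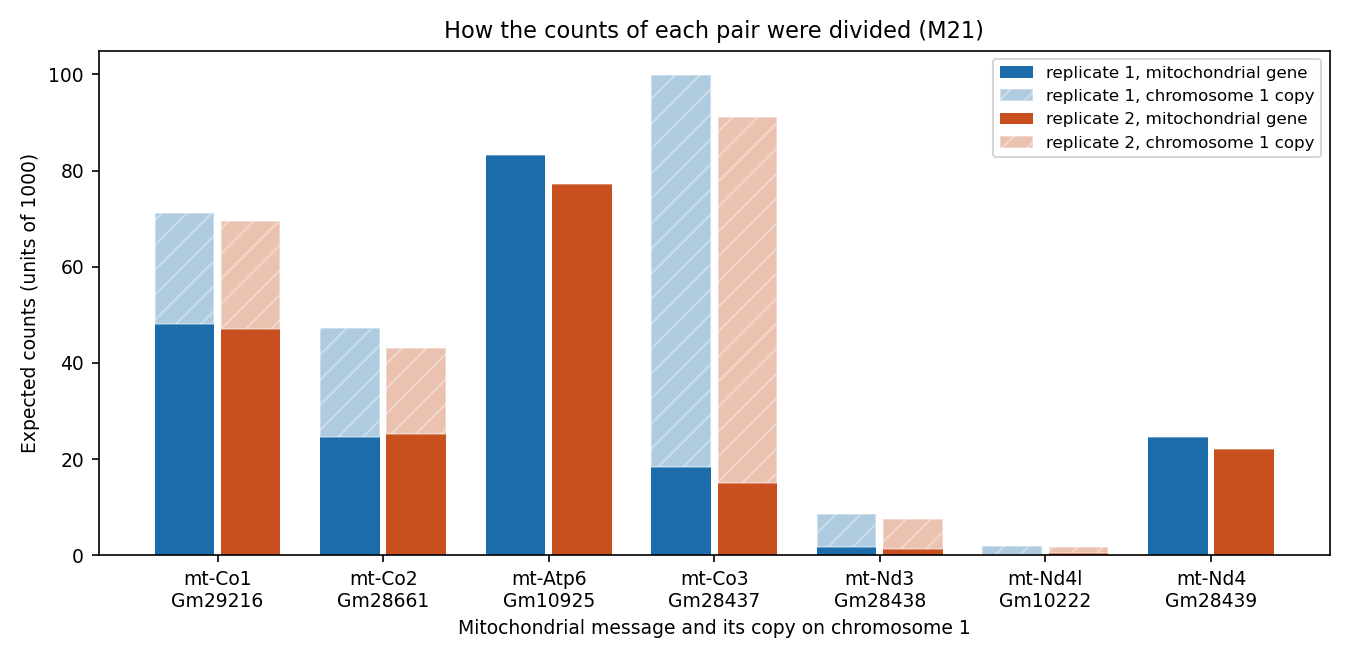
Expected counts, in units of 1000, of each message (solid) and its copy on chromosome 1 (hatched, stacked), for replicate 1 and replicate 2 under M21. The bars of mt-Co3 are mostly hatched, those of mt-Atp6 and mt-Nd4 show no hatched part, and those of mt-Co2 are split nearly evenly.

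The deposited posterior SD, the authors' measure of how uncertain the division of reads was, was large for several of these messages. It is given here as a share of the expected count. For mt-Co3 it was 16.6% in replicate 1 and 24.5% in replicate 2. For mt-Nd3 it was 15.8% and 21.3%, for mt-Co2 6.86% and 10.2%, and for mt-Nd4l 50.1% in replicate 2. It was 3.09% and 3.07% for mt-Atp6, 0.210% in both libraries for mt-Co1, and 0 for mt-Nd1, mt-Atp8, mt-Nd6, mt-Cytb and both rRNAs. Of 6176 genes with at least 1000 counts in both libraries, some had a posterior SD of 10% or more of the expected count. These were 13 in replicate 1 and 15 in replicate 2, or 0.210% and 0.243% of them. Among the 12 messages at that depth the numbers were 2 (mt-Co3 and mt-Nd3) and 3 (with mt-Co2). The posterior SD belongs to the posterior mean count, which for mt-Co3 was 41546 and 38105, against expected counts of 18432 and 15061. With posterior SDs of 3063 and 3690, mt-Co3 would not reach 10% of that mean. The numbers of genes were not counted on that base.

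For mt-Atp6 and mt-Co3 the deposited TPM also lay outside the authors' own interval by more than for other messages. The posterior mean TPM of mt-Co3 was 1818 in replicate 1 and 1798 in replicate 2, or 2.21 and 2.47 times its TPM, with credibility intervals of 1650 to 2231 and 1459 to 2167. That of mt-Atp6 was 3294 and 3484, below its TPM, while its copy Gm10925, at 0.23 and 0.06 TPM, had a posterior mean TPM of 999 and 803. By posterior mean count the message share was 76.8% and 81.3% for mt-Atp6, 41.6% and 41.8% for mt-Co3, and 8.18% and 34.3% for mt-Nd4l. The scales themselves differed slightly: the posterior mean TPM of mt-Cytb, with a posterior SD of 0, was 0.979 and 0.978 times its TPM. The level at which the intervals were drawn is not given in the file headers.

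**Figure D3:**
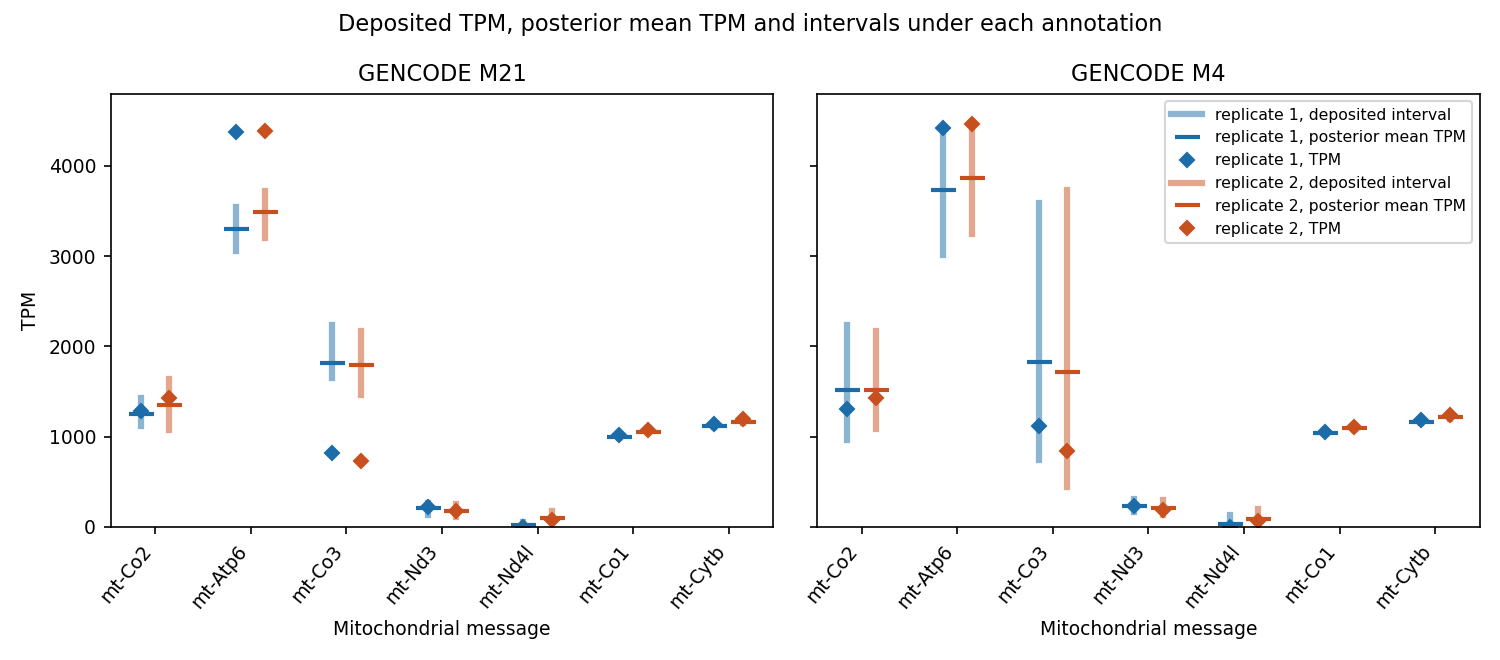
TPM (diamonds), posterior mean TPM (horizontal marks) and deposited credibility interval (vertical bars) of 6 messages with a copy and of mt-Cytb, for each library under M21 (left) and M4 (right). Under M21 the diamonds of mt-Co3 lie below its intervals and those of mt-Atp6 above, and under M4 the intervals of mt-Co3 span most of the axis.

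When the counts of message and copy were added and divided by the effective length of the message, an alternative chosen after the data were seen, the order of the levels changed. The highest was then mt-Co3, at 4465 TPM in replicate 1 and 4401 TPM in replicate 2, next to its neighbour mt-Atp6 at 4379 and 4380 TPM. The ratio of mt-Atp6 to mt-Co3 moved from 5.32 and 6.03 with the deposited TPM to 0.981 and 0.995 with the sums. These 2 messages lie end to end, overlap by 1 base and have no tRNA between them. Whether their true levels are equal, and whether the sums or the deposited values lie nearer to them, was not tested.

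The other messages with copies moved as follows with the sums. The level of mt-Co2 was 2475 and 2437 TPM, that of mt-Co1 1506 and 1591 TPM, and that of mt-Nd3 1047 and 996 TPM. That of mt-Nd4l was 306 and 296 TPM, so that mt-Nd5, at 245 and 237 TPM, became the lowest message. The levels of mt-Nd4 and mt-Nd4l, which overlap by 7 bases and are known to share 1 message, stood in the ratio 1.92 in both libraries. This ratio also rested on the length used: mt-Nd4l is 297 bases long and its effective length was 198. The full range over the messages, mt-Co3 over mt-Nd5, was 18.2 and 18.6 times. The median over the 13 was 1168 ± 32.9 TPM (n = 2), now the level of mt-Cytb, and their sum went from 15375 and 15597 TPM to 21830 and 21845 TPM. A sum of this kind counts any read truly from chromosome 1 as mitochondrial, so it is an upper value for the messages.

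Since both libraries are of 1 group, their comparison gives the spread between them and not an effect of a condition. Differences between the embryo pools and error of the measurement cannot be told apart in it. A gene with 10 counts or more on average was called different where its scaled counts differed by over 2-fold and the split given by the library sizes lay outside its exact 95% binomial interval. By this rule 407 of 17343 genes were called, or 2.35%, and 1 of the 15 mitochondrial genes with counts was, mt-Nd4l. It had 0 counts in replicate 1 and 444 in replicate 2. Its posterior mean counts were 162 (posterior SD 113) and 608 (posterior SD 223), and its credibility intervals overlapped, reaching up to 55.1 TPM in replicate 1 and from 32.3 to 175 TPM in replicate 2. No fold is given, since the count of 0 came with this uncertainty in the division of reads. The same rule on the sum of mt-Nd4l and Gm10222, 1982 and 1773 counts, gave a log2 ratio of -0.05 (95% interval -0.14 to 0.05).

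No other mitochondrial gene was called. The log2 ratio of replicate 2 to replicate 1 was -0.32 for mt-Nd3, -0.18 for mt-Co3 and 0.15 for mt-Co2. With the copy added these became -0.07, -0.02 and -0.02. For genes without a copy it was 0.10 for mt-Rnr2, -0.06 for mt-Rnr1, -0.13 for mt-Nd6 and 0.06 for mt-Cytb. Over the 13 messages the ratio was above 0 for 6 and below 0 for 7, and over the 13 sums it was above 0 for 4 and below 0 for 9. Scaling by spike-ins moved the median of all genes to -0.12, and then 2 messages and 0 sums were above 0, so no direction is read from these signs. The median size of the log2 ratio was 0.08 over the 15 mitochondrial genes and 0.05 over the 13 sums of message and copy, beside 0.10 over all genes tested. None of the 13 sums was called.

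**Figure D4:**
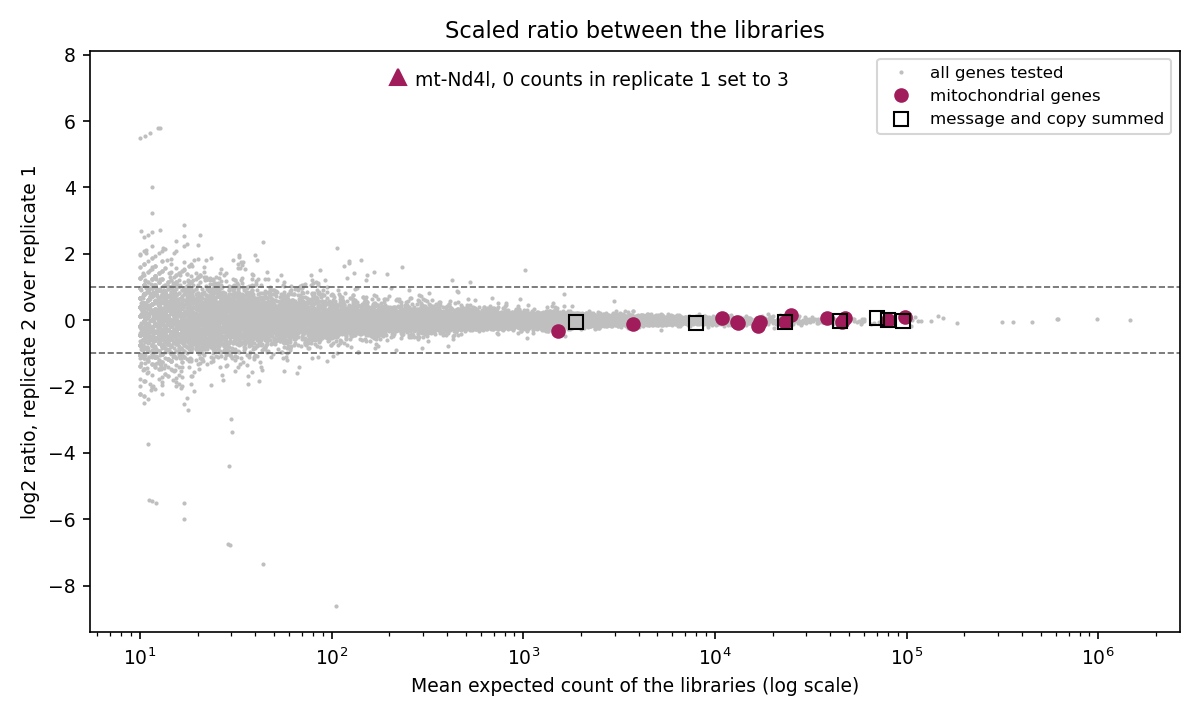
Log2 ratio of replicate 2 to replicate 1 after scaling, against the mean expected count of the libraries (log scale), for all genes tested (grey points), mitochondrial genes (filled circles) and the sums of message and copy (open squares). The triangle marks mt-Nd4l with its 0 counts in replicate 1 set to 3, a placement for display and no estimate of the ratio, dashed lines mark 2-fold, and all open squares lie near 0.

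Both libraries had also been quantified under the older M4 annotation. Whether the software was the same for both annotations is not stated in the sources used here, so a change between the tables is not shown to come from the annotation alone. With 1 added to each TPM, a gene was called where M4 and M21 differed by over 1.5-fold, in the same direction for each library. This called 734 of 13620 genes, or 5.39%, and none of the 15 mitochondrial genes. The median log2 ratio was 0.05 over these 15 and 0.04 over all genes compared. The expected counts of mt-Nd1 (48353 and 43392) and mt-Cytb (39064 and 37639) were the same under both annotations. The TPM of such genes could change only through the total that TPM is scaled by. With 0 in replicate 1 under both annotations, mt-Nd4l could not be called by this rule. The largest among them were those of mt-Co3, 0.43 in replicate 1 and 0.21 in replicate 2, then those of mt-Nd3, 0.11 and 0.13, and mt-Nd4l was -0.12 in replicate 2. Of 6 copies compared 1 was called, Gm10925, which stood at 123 and 79.8 TPM under M4 and at 0.23 and 0.06 TPM under M21.

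The uncertainty of the division was larger under M4 for mt-Co3, mt-Co2 and mt-Atp6, while that of mt-Co1 changed little (0.210% and 0.215%). The posterior SD of mt-Co3 was 95.5% of its expected count in replicate 1 and 136.6% in replicate 2, with intervals of 738 to 3582 and 443 to 3731 TPM. Its posterior mean counts there were 40041 and 34942, with posterior SDs of 22922 and 22880. As a share of the expected count, the posterior SD was 32.6% and 26.2% for mt-Co2 and 11.7% and 8.21% for mt-Atp6. For mt-Cytb, mt-Nd1 and mt-Atp8 it remained 0.

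The nuclear genes that make, cut, protect, modify and translate these RNAs were described from lists, of whose 110 symbols 109 were found (Prorp was not matched). None of the 109 differed between the libraries by the rule above, which called 2.35% of all genes tested, a background not matched for depth. For transcription and replication of mitochondrial DNA (18 genes) the median was 14.8 TPM. The highest were Ssbp1, which coats single-stranded mitochondrial DNA, at 89.7 ± 0.69 TPM (n = 2), Tfam, which packs the DNA and starts transcription, at 46.3 ± 5.14 TPM, and Mterf3, of the termination factor family, at 33.6 ± 0.74 TPM. The lowest was Mterf1b, at 2.86 ± 0.23 TPM, which has a close paralogue in Mterf1a and is uncertain.

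For the 4 genes that cut precursors at tRNA ends and finish the tRNAs, the median was 39.6 TPM. In order these were Hsd17b10 at 84.4 ± 1.51 TPM, Trnt1, which adds the CCA end, at 48.8 ± 1.17 TPM, Elac2, which cuts the 3′ ends, at 30.5 ± 1.85 TPM, and Trmt10c, a partner of Hsd17b10 in cutting the 5′ ends, at 19.8 ± 0.54 TPM. For message stability, tails and decay (17 genes) the median was 38.3 TPM, with Slirp, which holds messages together with Lrpprc, at 180 ± 5.13 TPM, Rexo2, which degrades short RNA, at 141 ± 4.26 TPM, Fastk, known for its part in the level of mt-Nd6, at 63.0 ± 3.49 TPM and Fastkd1 lowest at 6.84 ± 0.28 TPM.

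For modification of mitochondrial tRNAs and rRNAs (15 genes) the median was 17.3 TPM. The pseudouridine synthase Pus1 was highest at 41.6 ± 1.29 TPM, then Qtrt1 at 26.8 ± 0.99 TPM and Mto1 at 26.2 ± 2.40 TPM, and the cytosine methyltransferase Nsun3 was lowest at 6.99 ± 1.29 TPM. For translation and insertion (14 genes) the median was 23.8 TPM. The complex IV assembly factors Coa3 and Cox20 stood at 123 ± 3.34 and 88.9 ± 4.24 TPM, the elongation factor Tufm at 104 ± 5.64 TPM, and Mss51 was lowest at 0.44 ± 0.06 TPM.

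Finally, the mitochondrial messages were set beside the nuclear messages of the same complexes, on the TPM scale. The nuclear list of complex I holds core subunits only, unlike those of the other complexes, so the ratios are not compared between complexes. Whether oligo-dT priming captured mitochondrial and nuclear messages alike was not tested. In complex I the median of the 7 mitochondrial messages was 1.80 ± 0.10 times that of 7 nuclear core subunits, whose median was 156 TPM, from Ndufs7 at 254 ± 10.0, Ndufv2 at 198 ± 3.34 and Ndufs8 at 173 ± 12.9 down to Ndufs1 at 113 ± 1.80 TPM. In complex III mt-Cytb stood at 3.54 ± 0.24 times the median of 9 nuclear subunits, 331 TPM, of which Uqcr10 (591 ± 10.2), Uqcrq (546 ± 14.5) and Uqcr11 (512 ± 21.3) were highest and Uqcrc2 (130 ± 6.29) lowest.

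In complex IV the median of the 3 mitochondrial messages was 1.97 ± 0.04 times that of 10 nuclear subunits, 532 TPM. Of those Cox8a was highest at 775 ± 14.4 TPM, then Cox4i1 at 670 ± 38.4 and Cox6a1 at 669 ± 20.4 TPM, and Cox7b was lowest at 253 ± 3.65 TPM. In complex V the median of mt-Atp6 and mt-Atp8 was 8.83 ± 0.27 times that of 15 nuclear subunits, 434 TPM. That ratio rests in part on the effective length of mt-Atp8, 105 of its 204 bases. The nuclear subunits were as follows. They ran from the catalytic subunit Atp5b at 1805 ± 34.1 TPM, then Atp5g3 at 677 ± 0.04 and Atp5a1 at 640 ± 4.74 TPM, down to Atp5g2 at 34.3 ± 1.44 TPM. With message and copy summed, the ratio became 2.86 ± 0.11 in complex I and 4.62 ± 0.13 in complex IV, and stayed at 3.54 and 8.83 in complexes III and V.

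**Figure D5:**
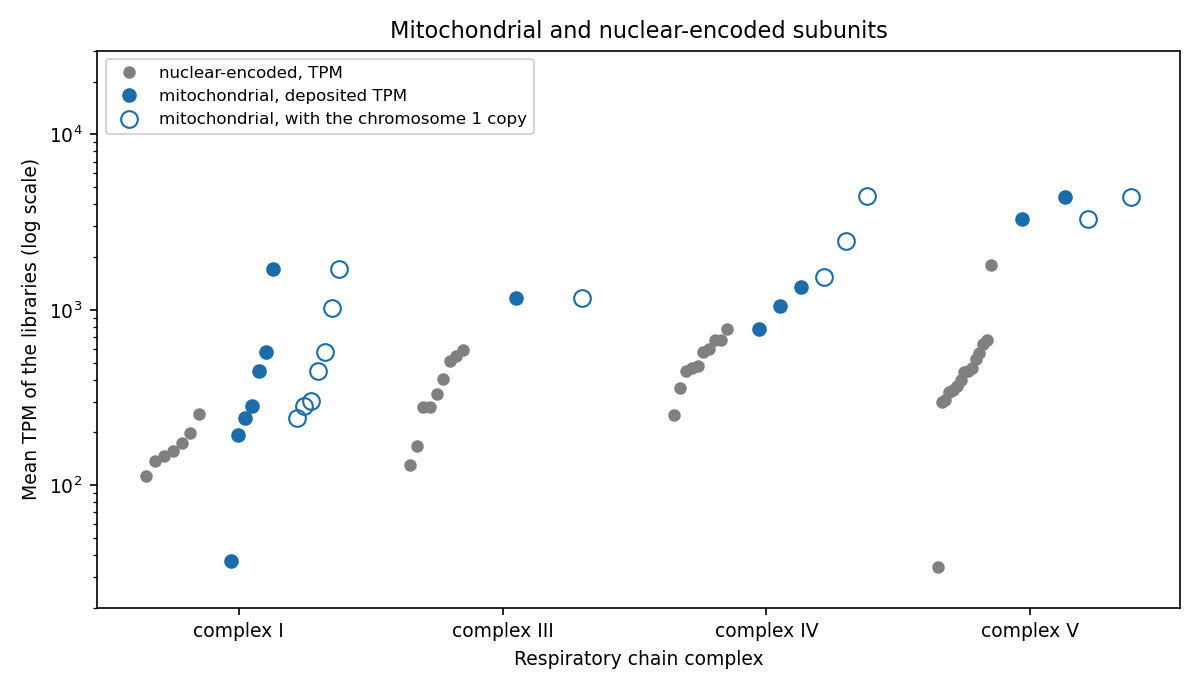
Mean TPM of the libraries (log scale) for nuclear-encoded subunits (grey), mitochondrial messages as deposited (filled) and with the copy summed (open), by complex. Both mitochondrial messages of complex V stand above all 15 nuclear subunits, while the deposited values of complex I, where mt-Nd4l is lowest, lie on both sides of theirs.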

How the data were processed

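Gene quantification tables of 2 polyA RNA libraries were used, each under GENCODE M21 and M4. Per the notes deposited with each library, the assembly was mm10. The expected counts and TPM are the authors' values as deposited. The posterior SD, posterior mean and credibility intervals are also theirs, per the file headers. Not given in the sources used here are the quantifier, its version and its use of strand. Entries with Ensembl identifiers formed the library sizes, 37190042 and 34291772 counts. The 26248 entries with bare numbers (53.3 and 44.0 counts) and the spike-ins were left out.

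Members, lists and tests were chosen with earlier results of these data known. Libraries were scaled with TMM (edgeR 4.0.16, R 4.3.3, prior count 0.5) and, as an alternative, DESeq2 1.42.0 size factors. Counts were rounded for exact intervals (scipy 1.17.1). Neither tool was used for p-values, since 2 libraries of 1 group give no contrast. The comparison was tested on simulated data. Copies were pseudogenes within 10 kb of Gm10925, aligned to the messages with Biopython 1.88, and tables were handled with pandas 2.3.3 and figures drawn with matplotlib 3.10.9.

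All messages and rRNAs are named, tRNAs at 10 counts or more, copies at 100 counts or more, and of each list the 3 highest genes and the lowest. The lists were transcription and replication, RNA cutting, stability with tails and decay, modification, translation factors, and nuclear subunits of complexes I, III, IV and V. Markers were of hepatoblast, red cell, macrophage, endothelium, cardiac muscle and mature hepatocyte. Copies that the rule does not name are given because the results turn on them. Alternatives were other scalings, count minimums, folds and pseudocounts, posterior means, M4, TPM without spike-ins, messages only, copies added, and each library alone.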

Additional observations from a re-analysis of the deposited data

How the results depend on the processing

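The share of counts in the 37 mitochondrial genes, 1.22% on average, was 1.18% over all entries, 1.24% under M4, 0.894% for the messages only and 1.58% with the copies added. The share of TPM, 1.82%, was 1.92% without spike-ins, 1.90% under M4, 1.55% for the messages only and 2.60% with the copies added. The median TPM of the 13 messages, 775, was 1024 by posterior mean TPM, 947 under M4, 1191 as a mean and 1168 with message and copy summed. The messages' share of the 7 pairs, 59.9%, was 61.8% by posterior mean count. The count of mitochondrial genes differing between libraries, 1, was 0 with message and copy summed and 1 under the 8 other settings tried (M4 here, and the sum throughout, were chosen after seeing the data). The count differing between annotations was 0 under all 6 settings tried, of which leaving out a library was also added later. With either library left out, the 4 values ranged from 1.20% to 1.23%, from 1.81% to 1.84%, from 727 to 824 TPM and from 59.6% to 60.2%. The comparison between libraries has no value with a library left out. Single levels moved by over 1.5 times for 2 of 15 genes by posterior mean TPM, mt-Co3 and mt-Nd4l, and for 4 of 7 with copies summed, mt-Co2, mt-Co3, mt-Nd3 and mt-Nd4l. No paired analysis was possible because there is a single group. The limits lie in sequence shared with the copies and in the 100-base window, and 2 libraries give only a rough spread.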

Other observations

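The further nuclear copies on chromosome 2, all unprocessed pseudogenes on the minus strand of mm10, share fewer windows with the messages and had almost no counts. Gm13340 (chr2:22588103-22589647) shares 80 of the 1446 windows of mt-Co1 and had 11.1 counts in replicate 1 and 10.8 in replicate 2. Gm13341 (chr2:22587291-22587962) shares 88 of the 585 windows of mt-Co2 and had 10.9 and 15.4 counts. Gm13339 (chr2:22590024-22590533) shares 30 of the 939 windows of mt-Nd2 and had 0 counts in both libraries, which allows up to 3 by counting error. These genes were chosen after their sequences and values were seen.

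Between Gm28661 and Gm10925 on chromosome 1 lie 233 bases with no annotated gene, as many as between the matched ends of mt-Co2 and mt-Atp6, where mitochondrial DNA holds mt-Tk and most of mt-Atp8. No genome sequence was used here, so whether that interval repeats mt-Atp8 was not tested, and the absence of a shared window for mt-Atp8 refers to annotated transcripts only.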
